A study of Mus musculus with 6 samples.

Results

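Collagen chain genes are the genes whose symbol is Col, a type number, the letter a and a chain number, and 40 of the 20071 genes in the count table carried such a name. They were followed in mesenchymal stem cells (MSCs, stromal cells of bone marrow that can form osteoblasts) from femurs of 6-week-old mice on a C57BL/6J background. The control cells came from Pcif1fl/fl mice and the Pcif1 CKO cells from Prrx1-Cre;Pcif1fl/fl littermates, so that both groups carried loxP sites around exons 5 to 7 of Pcif1 and the groups differed by Prrx1-Cre, a recombinase expressed in limb bud mesenchyme. All cells had spent 7 days in osteogenic medium that held dexamethasone at 100 nM, β-glycerophosphate at 5 mM and ascorbic acid at 50 μg/mL. Each genotype had 3 libraries, whereas the design text speaks of duplicates. The labels do not tell if each library is a mouse or a culture of its own, so the p-values measure the spread between these libraries, which may be partly technical.

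Collagens are trimers of chains wound into a triple helix, and the chains are made by separate genes. Fibrillar collagens form the tension-bearing fibrils of bone, tendon and cartilage, network collagens form sheets such as those of basement membranes, beaded filament collagens of type VI link cells to the surrounding matrix, and FACIT collagens sit on the surface of fibrils. Type I collagen, made of the chains of Col1a1 and Col1a2, is the main protein of bone, and osteoblasts secrete it before the matrix mineralizes.

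Poly(A) RNA gave between 20258209 and 28227696 counts per library. Counts were compared by the quasi-likelihood test of edgeR, with p-values adjusted by the Benjamini-Hochberg method over the 13733 genes that passed an expression filter. Levels are given in CPM, the counts of a gene scaled to the size of its library, and SE is the standard error of a log2 fold change. Control replicate 3 stood apart from the other libraries. It held 3.63% of its counts on mitochondrial genes against 1.40 to 1.57% in the others, and its counts differed from those of control replicates 1 and 2 by a chi-square per gene of 98.6 and 82.9, where replicates 1 and 2 differed by 9.62. The test was therefore repeated without it. Between CKO libraries the chi-square per gene was 2.83 for replicates 1 and 3, 10.1 for replicates 1 and 2, and 9.66 for replicates 2 and 3. Pcif1 had 39.3 to 42.8 CPM in control and 37.8 to 39.7 CPM in CKO libraries, but counts over the whole gene also take reads outside exons 5 to 7 and do not check the deletion. Xist had 232 to 443 CPM in control and 0.722 to 1.79 CPM in CKO libraries, and Y-linked Ddx3y had 48.4 to 62.2 and 99.1 to 104 CPM, so genotype cannot be told apart from the sex of the mice behind the libraries. All 8 mesenchymal marker genes passed the expression filter and 7 of 8 osteoblast marker genes did, while the osteocalcin gene Bglap stayed under 0.25 CPM in every library. Macrophage transcripts were abundant, with Lyz2 at 21981 to 26233 CPM over the 6 libraries.

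Collagen transcripts took a larger share of the counts in the CKO libraries. All 40 genes together held 1.84%, 1.74% and 1.48% of the counts in control replicates 1 to 3, and 2.21%, 2.06% and 2.20% in CKO replicates 1 to 3. The groups did not overlap, and the difference of the means was 0.471 percentage points, or 0.366 without control replicate 3. With 3 libraries against 3, the smallest p that an exact two-sided permutation test can give is 0.1, so single shares and ratios are given with their values and no test. Type I collagen accounted for most of this. Without Col1a1 and Col1a2, the remaining 38 genes held 0.911%, 0.870% and 0.815% of control counts and 0.945%, 0.869% and 0.924% of CKO counts, and these ranges overlapped. In bulk RNA, fewer cells of a type and less RNA per cell cannot be told apart, and the same holds for more.

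**Figure D1:**
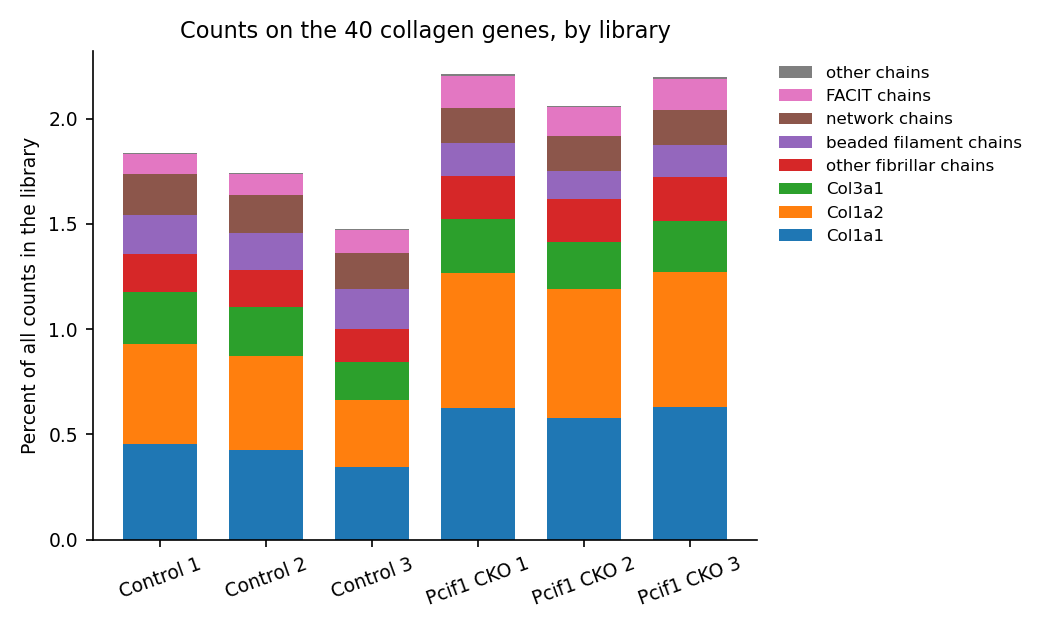
Percent of all counts in each library that fell on collagen genes, stacked by Col1a1, Col1a2, Col3a1, the other fibrillar chains, beaded filament, network and FACIT chains, and all other chains. The 3 CKO bars reach 2.06 to 2.21% and the 3 control bars 1.48 to 1.84%, and the blocks of Col1a1 and Col1a2 are taller in every CKO bar.

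Of the 40 genes, 34 passed the expression filter and 6 did not. The log2 fold change of CKO over control reached an adjusted p under 0.05 for 7 of the 34, or 20.6%, where 7.4% of all genes tested did. Col1a1, Col1a2, Col12a1 and Col4a5 rose, which is 11.8% of those tested against 2.88% of all genes. Col27a1, Col10a1 and Col6a4 fell, which is 8.82% against 4.51%. Where a change of 1 or more on the log2 scale was required as well, 0 collagen genes rose, where 1.03% of all genes did, and 2 fell, Col10a1 and Col6a4, or 5.88% against 2.5%. The median log2 fold change of the 34 genes was -0.059, and that of all genes tested was 0.0017. On the log2 scale 16 of the 34 lay above 0 and 18 below, where 50.3% of all genes lay above and 49.7% below. An unadjusted p under 0.05 was reached by 15 collagen genes, or 44.1%, and by 21.4% of all genes tested.

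The libraries of both groups separated for more genes than the test called. The 3 CKO libraries all lay above the 3 control libraries for 8 collagen genes, or 23.5%, against 15% of all genes tested, and all below for another 8, against 15.7%. In either direction this was 47.1% of the collagen genes and 30.8% of all genes. The number of called genes depended on single libraries. Without control replicate 3, 8 collagen genes rose and 9 fell, and in that fit 21.5% of all genes were called. Without CKO replicate 1, 0 rose and 2 fell, without CKO replicate 2, 2 rose and 2 fell, without CKO replicate 3, 0 rose and 1 fell, and without control replicate 2, 1 rose and 2 fell. In those 4 fits, 3.38 to 4.57% of all genes were called. Without control replicate 1 the counts changed little, with 5 that rose and 2 that fell, and 5.59% of all genes were called.

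**Figure D2:**
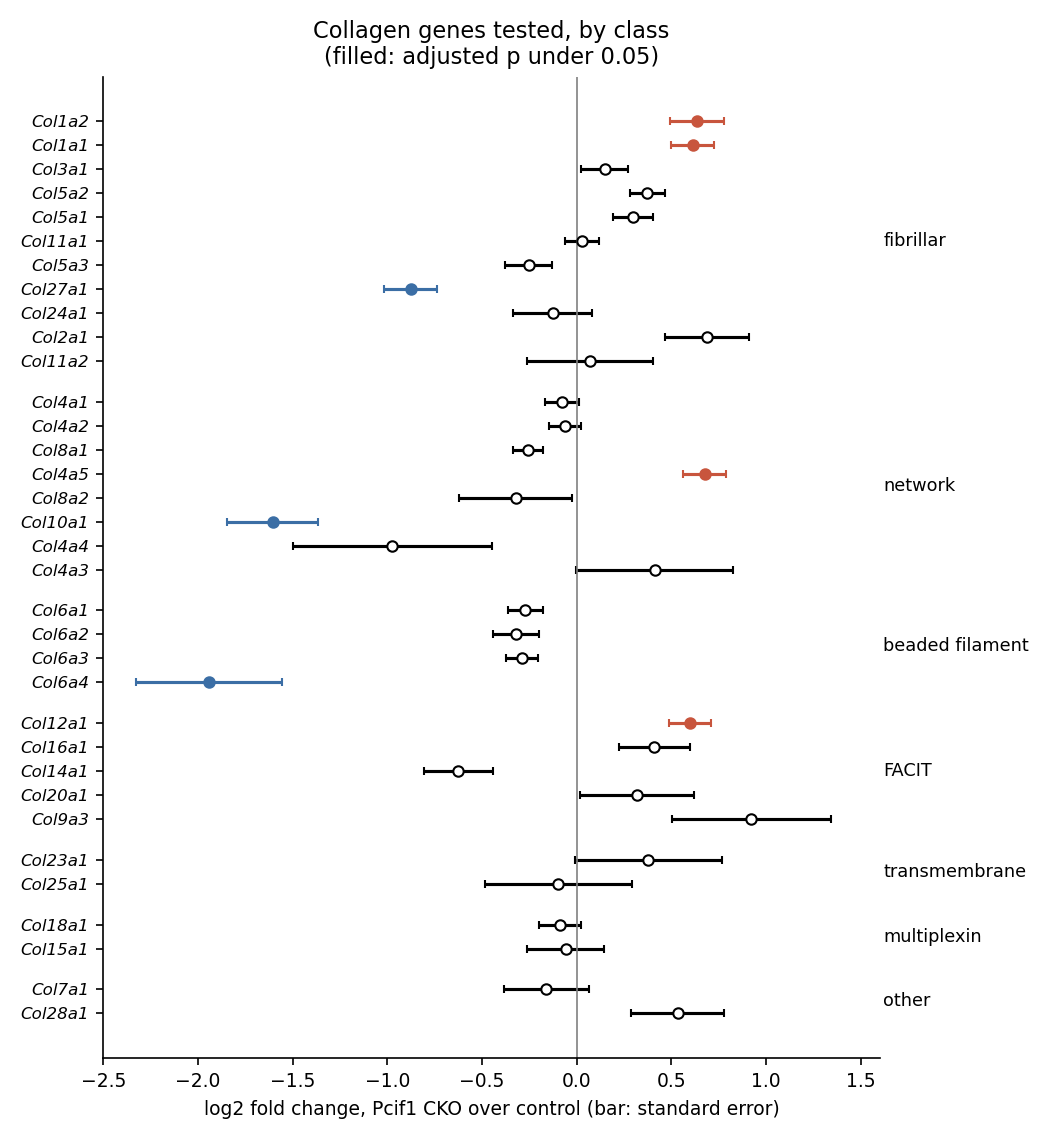
Log2 fold change of CKO over control (x axis) with its standard error for the 34 collagen genes tested, grouped by class and ordered within a class by mean level. Filled points passed an adjusted p of 0.05. Red points mark Col1a2, Col1a1, Col4a5 and Col12a1 to the right of 0, and blue points mark Col27a1, Col10a1 and Col6a4 to the left.

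PCIF1 is the enzyme that adds a methyl group to the first transcribed base of an mRNA, beside the cap, where that base is an adenosine, giving m6Am. RefSeq windows on GRCm38.p6 were read for the first base and the 250 bases before it. A link between the first base and the changes was not tested. A window was found for 32 of the 40 genes, in 34 windows in all. The first base was A in 16 of the 34 windows, or 47.1%, against 34.4% of the 32851 windows of all genes. The letters TATAAA were in 11.8% of collagen windows and 12.4% of all windows, and CCAAT in 35.3% and 33.8%, counted on both strands, and these motifs do not overlap each other. The 5 called genes with a window, picked by their result, are shown with their start and the letters before it. They lie at chr6:4505368-4505618 for Col1a2, chrX:141475169-141475419 for Col4a5, chr4:63215162-63215412 for Col27a1 and chr10:34389731-34389981 for Col10a1, all on the plus strand, and at chr9:106096691-106096941 on the minus strand for Col6a4. Sequences run 5′ to 3′ in lower case. Capitals mark TATAAA or CCAAT where present and, at the end, the first transcribed base.
Col1a2: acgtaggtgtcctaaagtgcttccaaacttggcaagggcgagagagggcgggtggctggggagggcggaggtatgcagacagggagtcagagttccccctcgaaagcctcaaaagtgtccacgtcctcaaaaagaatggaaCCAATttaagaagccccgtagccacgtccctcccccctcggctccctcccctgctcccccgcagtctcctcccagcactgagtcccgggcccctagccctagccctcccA
Col4a5: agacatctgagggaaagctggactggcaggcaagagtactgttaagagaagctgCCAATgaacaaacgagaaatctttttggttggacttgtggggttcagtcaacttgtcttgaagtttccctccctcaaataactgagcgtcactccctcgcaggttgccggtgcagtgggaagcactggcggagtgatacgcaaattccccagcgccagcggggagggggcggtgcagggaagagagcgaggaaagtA
Col27a1: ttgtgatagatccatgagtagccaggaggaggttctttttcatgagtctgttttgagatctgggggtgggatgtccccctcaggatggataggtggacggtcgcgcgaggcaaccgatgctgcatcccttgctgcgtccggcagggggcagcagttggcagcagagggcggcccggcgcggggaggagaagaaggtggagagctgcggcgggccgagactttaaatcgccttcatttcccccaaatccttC
Col10a1: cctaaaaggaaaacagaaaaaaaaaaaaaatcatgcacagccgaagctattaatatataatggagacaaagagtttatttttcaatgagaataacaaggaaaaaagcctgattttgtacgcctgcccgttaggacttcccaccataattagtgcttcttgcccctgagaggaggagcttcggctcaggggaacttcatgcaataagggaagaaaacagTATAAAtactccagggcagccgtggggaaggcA
Col6a4: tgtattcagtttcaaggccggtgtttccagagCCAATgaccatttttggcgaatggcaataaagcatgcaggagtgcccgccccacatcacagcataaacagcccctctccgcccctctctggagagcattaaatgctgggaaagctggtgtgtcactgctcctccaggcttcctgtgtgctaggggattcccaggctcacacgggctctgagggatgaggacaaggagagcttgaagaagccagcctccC
The first base was A in Col1a2 and Col4a5, which rose, and in Col10a1, which fell. It was C in Col27a1 and Col6a4, which both fell. CCAAT began 109 bases before the start of Col1a2, 196 before that of Col4a5 and 218 before that of Col6a4. TATAAA began 32 bases before the start of Col10a1, and the window of Col27a1 held neither. Col1a1 and Col12a1 had no window. The annotated RefSeq start is not a measured start of these cells, and cap methylation was not measured in these libraries.

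The fibrillar chains held most collagen counts, and type I collagen led them. Col1a1 (chromosome 11, 94936224 to 94953042, plus strand) encodes the chain of which type I collagen has a pair. It had 4491, 4140 and 3485 CPM in control replicates 1 to 3 and 6359, 5827 and 6332 CPM in CKO replicates 1 to 3. Every CKO library lay above every control library. Col1a1 rose by a log2 fold change of 0.61 (SE 0.12, adjusted p = 0.0154 by edgeR with Benjamini-Hochberg adjustment). Without control replicate 3 the log2 fold change was 0.52 (adjusted p = 2.05e-05). The call was lost without control replicate 2 (adjusted p = 0.0548), CKO replicate 1 (adjusted p = 0.0926) or CKO replicate 3 (adjusted p = 0.0849), with log2 fold changes of 0.63, 0.60 and 0.60.

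Col1a2 (chromosome 6, 4504814 to 4541544, plus strand) encodes the partner chain. Its levels were 4707, 4383 and 3226 CPM in control and 6500, 6204 and 6427 CPM in CKO libraries. The control libraries spread more than the CKO libraries, with control replicate 3 the lowest. The log2 fold change was 0.64 (SE 0.14, adjusted p = 0.0322 by edgeR with Benjamini-Hochberg adjustment), and 0.49 without control replicate 3 (adjusted p = 1.61e-05). The call was lost without control replicate 2 (adjusted p = 0.0760) and without CKO replicate 1, 2 or 3 (adjusted p = 0.142, 0.107 and 0.125), at log2 fold changes of 0.63 to 0.69. Counts on Col1a1 relative to Col1a2 were 0.954, 0.945 and 1.08 in control and 0.978, 0.939 and 0.985 in CKO libraries, which overlapped. Type I collagen made up 50.5%, 50.1% and 44.9% of collagen counts in control and 57.3%, 57.8% and 57.9% in CKO libraries.

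Col3a1, the chain of type III collagen, which shares fibrils with type I in soft tissue, had 2448, 2266 and 1833 CPM in control and 2587, 2231 and 2437 CPM in CKO libraries. These ranges overlapped, and the log2 fold change of 0.15 (SE 0.13) had an adjusted p of 0.552 by edgeR. Relative to Col1a1, counts on Col3a1 were 0.545, 0.547 and 0.526 in control and 0.407, 0.383 and 0.385 in CKO libraries. The ratio was lower in all 3 CKO libraries, and control replicate 3 lay close to the other controls on this measure.

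Type V collagen builds into type I fibrils and limits their width. Its chains Col5a1 and Col5a2 lay higher in CKO without passing the test, and the less abundant Col5a3 did not, at 30.9, 35.5 and 28.4 CPM in control and 27.5, 23.6 and 28.4 CPM in CKO libraries (log2 fold change -0.25, adjusted p = 0.298 by edgeR). Col5a2 had 806, 782 and 684 CPM in control and 990, 995 and 959 CPM in CKO libraries. All CKO libraries were above all control libraries, and the log2 fold change of 0.37 (SE 0.094) had an adjusted p of 0.0504 by edgeR with Benjamini-Hochberg adjustment, just above the threshold. It passed in 7 of 15 alternative analyses, DESeq2 among them (adjusted p = 0.00880), and the adjusted p ranged from 0.00114 to 0.206 over the 15. Col5a1 had 662, 614 and 522 CPM in control and 735, 728 and 749 CPM in CKO libraries. Its log2 fold change was 0.30 (adjusted p = 0.142 by edgeR), and it passed without control replicate 3 (0.21, adjusted p = 0.0193). Col5a1 relative to Col5a2 overlapped between the groups, at 0.763 to 0.822 in control and 0.732 to 0.781 in CKO libraries. Relative to Col1a1, counts on Col5a1 were 0.147 to 0.150 in control and 0.116 to 0.125 in CKO libraries, lower in every CKO library.

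**Figure D3:**
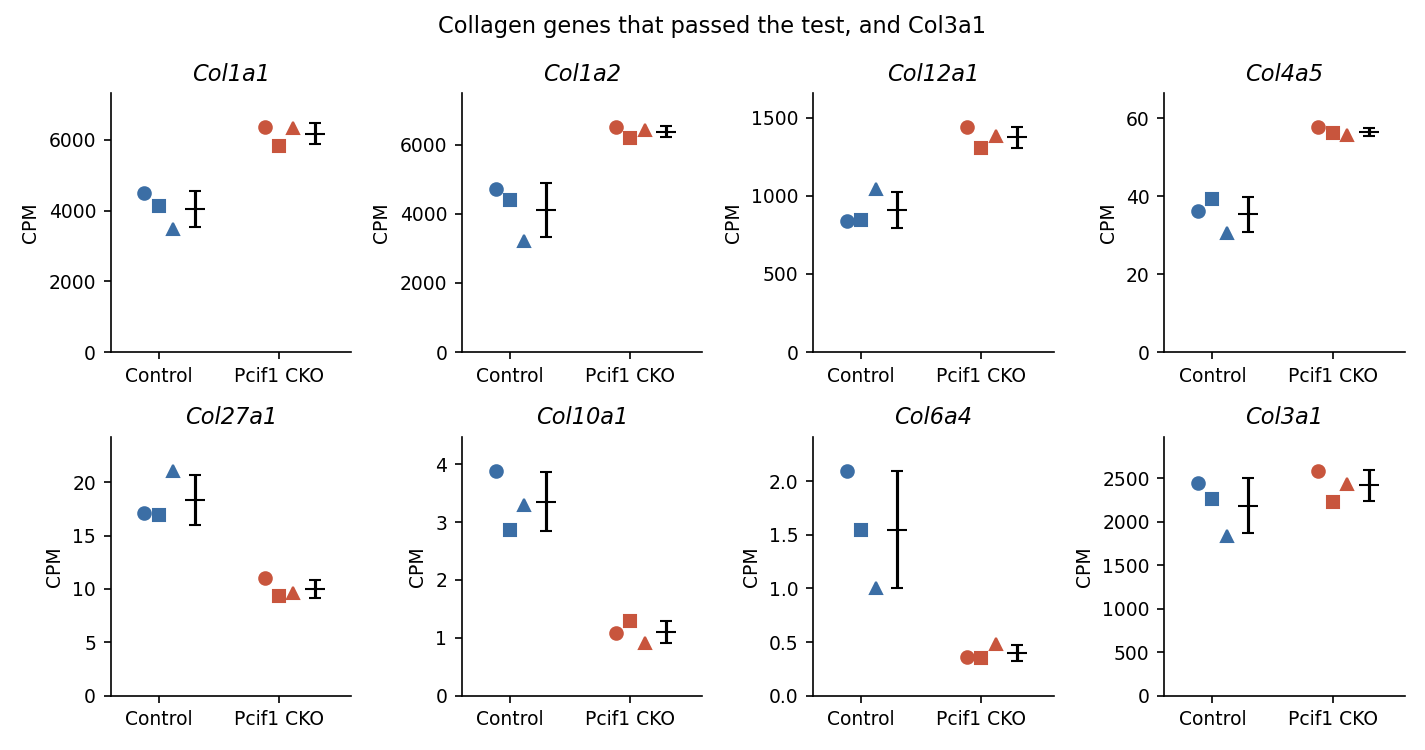
CPM of the 7 collagen genes that passed the test and of Col3a1, on linear axes that start at 0. Circles, squares and triangles are replicates 1, 2 and 3, and the black bar is the mean ± SD (n = 3). The groups separate for all 7 called genes and overlap for Col3a1, where CKO replicate 2 has 2231 CPM and control replicate 1 has 2448 CPM.

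Among the other fibrillar chains, Col27a1 fell. It encodes a fibrillar chain of cartilage, and it lies on chromosome 4 (63214004 to 63334991, plus strand). Levels were 17.1, 16.9 and 21.1 CPM in control and 11.0, 9.36 and 9.67 CPM in CKO libraries. All CKO libraries were below all control libraries, with a log2 fold change of -0.88 (SE 0.14, adjusted p = 0.0074 by edgeR with Benjamini-Hochberg adjustment). Without control replicate 3 it was -0.76 (adjusted p = 2.12e-04), and without CKO replicate 3 the adjusted p was 0.0521 at a log2 fold change of -0.85. Col2a1, the main fibrillar chain of cartilage, had 11.3, 8.23 and 6.38 CPM in control and 11.7, 16.1 and 13.9 CPM in CKO libraries. The groups did not overlap, but CKO replicate 1 and control replicate 1 lay close together. The log2 fold change of Col2a1 was 0.69 (SE 0.22, adjusted p = 0.111 by edgeR), and it passed in 4 of 15 alternatives. Col11a1, a minor chain of cartilage and bone fibrils, had 274, 262 and 302 CPM in control and 296, 279 and 282 CPM in CKO libraries (log2 fold change 0.030, adjusted p = 0.879 by edgeR). Its partner Col11a2 had 1.05, 2.09 and 1.04 CPM in control and 1.58, 1.39 and 1.44 CPM in CKO libraries, which overlapped. Of the 11 fibrillar chains, all tested, 2 rose, 1 fell and 8 did not pass, where 2.88% of all genes rose and 4.51% fell, and their median log2 fold change was 0.15 against 0.0017. That median is the value of Col3a1, which was 0.040 without control replicate 3.

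Network collagens moved in both directions. The basement membrane chains Col4a1 and Col4a2, which combine into the common type IV trimer, lie head to head on chromosome 8, where their annotated starts are 21 bases apart and the genes overlap by 22 bases on opposite strands. Col4a1 had 812, 736 and 717 CPM in control and 729, 713 and 705 CPM in CKO libraries. Col4a2 had 529, 483 and 489 CPM in control and 489, 461 and 489 CPM in CKO libraries. Both overlapped between the groups, with log2 fold changes of -0.078 and -0.060 (adjusted p = 0.661 and 0.728 by edgeR), and their ratio of counts stayed between 1.44 and 1.55 in all 6 libraries.

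Col4a5 (chromosome X, 141475385 to 141689234, plus strand), a type IV chain of specialised basement membranes such as that of the kidney glomerulus, rose. Its levels were 36.3, 39.3 and 30.6 CPM in control and 57.8, 56.3 and 55.8 CPM in CKO libraries. The CKO libraries were close together and all above the controls. The log2 fold change was 0.68 (SE 0.11, adjusted p = 0.0090 by edgeR with Benjamini-Hochberg adjustment), and 0.58 without control replicate 3 (adjusted p = 4.03e-05). The call was lost without CKO replicate 1, 2 or 3 (adjusted p = 0.0599, 0.0541 and 0.0521), at log2 fold changes of 0.67 to 0.69. Col4a5 relative to Col4a1 was 0.045, 0.053 and 0.043 in control and 0.079 in each CKO library. Col4a5 is X-linked, and the Xist and Ddx3y levels above separate the libraries the same way, which cannot be told apart from genotype. Of the 456 X-linked genes tested, 15 rose, or 3.29%, and 32 fell, and their median log2 fold change was -0.028. Of the 13269 genes tested off X and Y, 378 rose, or 2.85%, and 588 fell, with a median of 0.0024.
Its trimer partners lie on chromosome 1. Col4a3 had 5, 11 and 13 counts in control and 10, 12 and 9 counts in CKO libraries. Col4a4 had 10, 15 and 27 counts in control and 5, 4 and 12 counts in CKO libraries. Both overlapped between the groups, with log2 fold changes of 0.41 and -0.97 (SE 0.42 and 0.53, adjusted p = 0.619 and 0.340 by edgeR). Col4a6, whose start lies 1309 bases from that of Col4a5 on the opposite strand, had 4, 4 and 1 counts in control and 13, 5 and 7 counts in CKO libraries and was not tested.

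Col10a1 (chromosome 10, 34389981 to 34397085, plus strand) encodes the network chain of type X collagen, which is best known from hypertrophic cartilage. It had 3.89, 2.87 and 3.30 CPM in control and 1.08, 1.29 and 0.914 CPM in CKO libraries, from 78 to 92 counts and 19 to 26 counts per library. All CKO libraries lay well below all controls. The level was 3.04-fold lower in CKO, a log2 fold change of -1.61 (SE 0.24, adjusted p = 0.0052 by edgeR with Benjamini-Hochberg adjustment). Col10a1 was the called collagen gene that passed in all 15 alternatives, with adjusted p from 3.04e-05 to 0.0358. The antisense gene Nt5dc1 covers 0.575% of its exonic bases. Of the chondrocyte list, Acan and Snorc had no row, so their levels are not known. Matn1, Matn3, Hapln1 and Cnmd were under 0.5 CPM in every library, and Sox9 had 7.57 to 14.1 CPM in control and 9.48 to 11.7 CPM in CKO libraries. The 5 chondrocyte genes with a row summed to 7.98 to 14.8 and 9.86 to 12.2 CPM, nearly all from Sox9. Of 7 osteoblast genes tested, Sp7, Alpl and Ibsp fell, with log2 fold changes of -1.88, -1.11 and -1.25, where 4.51% of all genes fell. Spp1 (0.43), Dmp1 (0.48), Runx2 (-0.41) and Bglap2 (-0.49) did not pass. Without control replicate 3, where 21.5% of all genes were called, Spp1 rose (0.66, adjusted p = 0.0110 by edgeR). The part of the chondrocyte and osteoblast genes in the level of Col10a1 was not tested.

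Col8a1, a short-chain network collagen of vessels and the eye, had 519, 499 and 501 CPM in control and 429, 418 and 422 CPM in CKO libraries. The groups did not overlap, and the log2 fold change of -0.26 (SE 0.079) had an adjusted p of 0.0949 by edgeR, or 0.00426 without control replicate 3. Its partner Col8a2 had 17.5, 14.5 and 7.17 CPM in control and 12.2, 9.91 and 9.19 CPM in CKO libraries, where control replicate 3 was the lowest library (log2 fold change -0.32, adjusted p = 0.585 by edgeR, and -0.61, adjusted p = 0.00453, without that replicate). Of the 9 network chains, 8 were tested, of which 1 rose and 1 fell (2.88% and 4.51% of all genes), with a median log2 fold change of -0.17 against 0.0017 for all genes. Their summed CPM was 1750 to 1918 in control and 1661 to 1719 in CKO libraries. As a share of collagen counts the network chains held 10.4 to 11.7% and 7.64 to 7.98%.

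All 4 beaded filament chains tested were lower in every CKO library than in every control library, where 15.7% of all genes tested were, and 1 of them, Col6a4, passed the test, where 4.51% of all genes fell. Col6a1, Col6a2 and Col6a3 make the classical type VI trimer. Col6a1 had 838, 768 and 791 CPM in control and 700, 610 and 676 CPM in CKO libraries. Col6a2 had 633, 571 and 732 CPM in control and 550, 454 and 546 CPM in CKO libraries. Col6a3, the long chain of the trimer, had 367, 365 and 390 CPM in control and 319, 287 and 312 CPM in CKO libraries. For each of these chains the highest CKO library lay below the lowest control. The log2 fold changes were similar, at -0.27, -0.32 and -0.29 (SE 0.092, 0.12 and 0.087), and the adjusted p were 0.129, 0.176 and 0.0897 by edgeR. Col6a1 and Col6a3 passed without control replicate 3 (adjusted p = 0.00995 and 0.0106), and Col6a2 did not (adjusted p = 0.0701). The ratios between the chains did not separate the groups, with Col6a1 to Col6a2 at 1.08 to 1.35 in control and 1.24 to 1.34 in CKO libraries.

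Col6a4 (chromosome 9, 105989454 to 106096783, minus strand) encodes a chain related to that of Col6a3. It had 2.10, 1.54 and 1.00 CPM in control and 0.360, 0.348 and 0.481 CPM in CKO libraries, from 48, 42 and 28 counts and 8, 7 and 10 counts. The control libraries spread over a wide range that stayed above all CKO libraries. The log2 fold change was -1.94 (SE 0.39, adjusted p = 0.0193 by edgeR with Benjamini-Hochberg adjustment), and -2.17 without control replicate 3 (adjusted p = 9.52e-04). The call was lost without any one of the other 5 libraries, namely control replicates 1 and 2 and CKO replicates 1 to 3, with adjusted p of 0.0571, 0.0664, 0.103, 0.0969 and 0.0687 and log2 fold changes from -1.67 to -2.10. The antisense genes Gm36993 and Gm47575 cover 1.49% and 1.9% of its exonic bases. The neighbouring Col6a5 had 2 to 21 counts in a library and was not tested. The type VI genes together had 1705 to 1914 CPM in control and 1350 to 1570 CPM in CKO libraries, and their share of collagen counts was 11.0% ± 1.58 in control and 6.82% ± 0.282 in CKO (SD, n = 3).

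**Figure D4:**
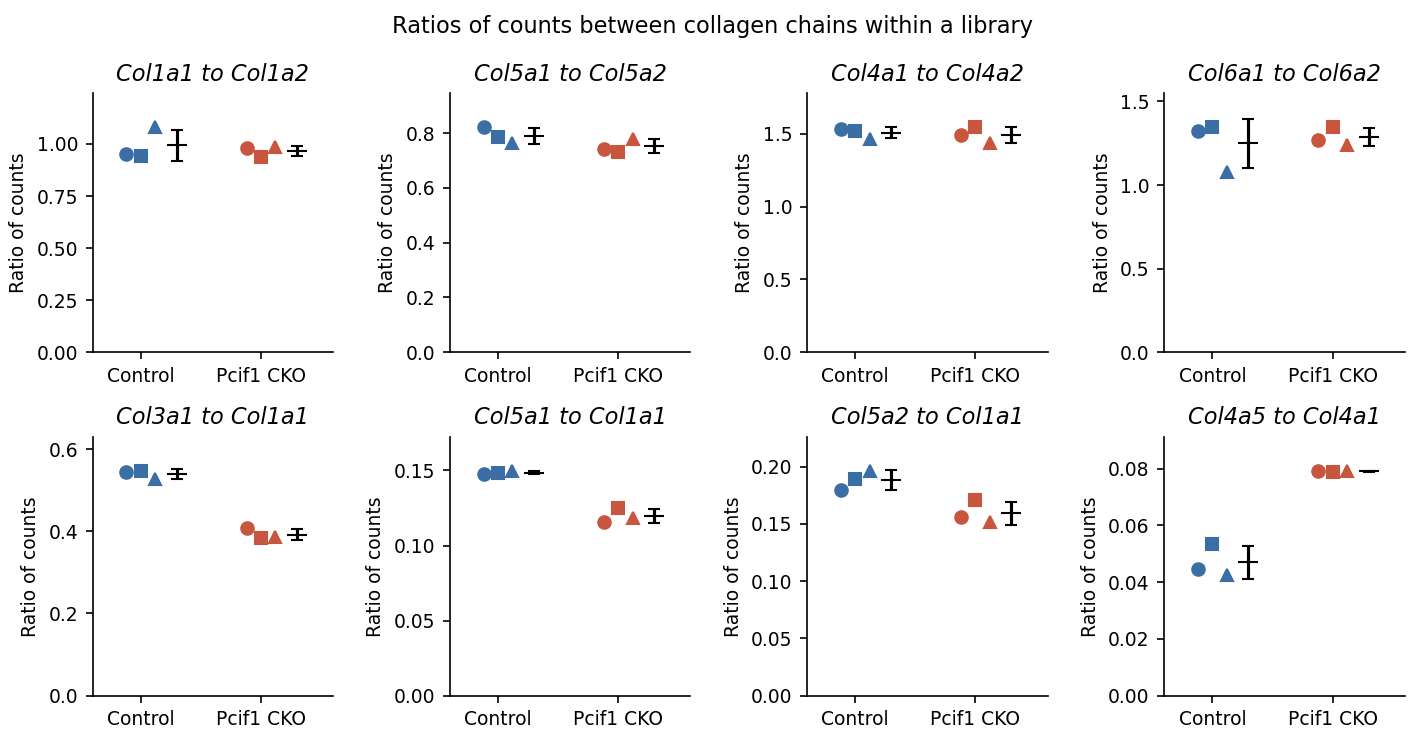
Ratio of counts between pairs of collagen chains within each library, on linear axes from 0. Circles, squares and triangles are replicates 1, 2 and 3, and the black bar is the mean ± SD (n = 3). In the upper row, pairs that share a trimer overlap between the groups. In the lower row, Col3a1, Col5a1 and Col5a2 relative to Col1a1 are lower in all CKO libraries, and Col4a5 relative to Col4a1 is higher.

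Col12a1 led the FACIT chains. It encodes the long chain of type XII collagen, found on type I fibrils of tendon, periosteum and fascia, and lies on chromosome 9 (79598991 to 79718831, minus strand). It had 836, 848 and 1041 CPM in control and 1438, 1303 and 1380 CPM in CKO libraries. The CKO libraries lay above all controls, and control replicate 3 was the highest control, unlike its place for Col1a1 and Col1a2. Col12a1 rose by a log2 fold change of 0.60 (SE 0.11, adjusted p = 0.0146 by edgeR with Benjamini-Hochberg adjustment), and by 0.71 without control replicate 3 (adjusted p = 7.88e-07). The call was lost without control replicate 2, CKO replicate 1 or CKO replicate 3 (adjusted p = 0.0665, 0.0899 and 0.0773), at log2 fold changes of 0.55, 0.57 and 0.60. Counts on Col12a1 relative to Col1a1 overlapped, at 0.186 to 0.299 in control and 0.218 to 0.226 in CKO libraries.

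The related Col14a1, a FACIT chain of dense connective tissue, had 7.56, 7.83 and 6.24 CPM in control and 5.58, 4.08 and 4.33 CPM in CKO libraries. It was lower in every CKO library, at a log2 fold change of -0.62 (SE 0.18, adjusted p = 0.0797 by edgeR), and passed without control replicate 3 (adjusted p = 0.00783). Col16a1 had 84.4, 77.7 and 48.0 CPM in control and 91.9, 92.1 and 95.3 CPM in CKO libraries. Its log2 fold change was 0.41 (adjusted p = 0.259 by edgeR), and 0.20 without control replicate 3, the lowest library (adjusted p = 0.0464). Of the 8 FACIT chains with a row, 5 were tested, 1 rose and 0 fell (2.88% and 4.51% of all genes). Their median log2 fold change was 0.41 against 0.0017 for all genes, and it is the value of Col16a1, which was 0.20 without control replicate 3. The class summed to 930 to 1097 CPM in control and 1402 to 1539 CPM in CKO libraries, nearly all of it from Col12a1.

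Members of the remaining classes did not pass the test. The most abundant transmembrane chain, Col23a1, had 1.35, 0.919 and 0.789 CPM in control and 1.04, 0.896 and 2.02 CPM in CKO libraries (log2 fold change 0.38, SE 0.39). Col18a1, the multiplexin that carries endostatin, had 59.7, 58.2 and 56.8 CPM in control and 61.4, 47.7 and 55.2 CPM in CKO libraries (log2 fold change -0.089, SE 0.11). Col7a1, which makes the anchoring fibrils of skin, had 10.2, 11.7 and 6.38 CPM in control and 8.64, 7.42 and 9.14 CPM in CKO libraries (log2 fold change -0.16, SE 0.22). The groups overlapped for each of these genes. The other genes tested, Col15a1, Col20a1, Col24a1, Col25a1 and Col28a1, and Col9a3, overlapped between groups as well.

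The precision of the comparison followed the level. Over all genes tested, at any level, 2.88% rose and 4.51% fell. The 13 genes with a mean of at least 100 CPM held 98.5% of the collagen CPM, had a median standard error of 0.094 and log2 fold changes between -0.32 and 0.64, and 3 rose and 0 fell. The 8 genes from 10 to 100 CPM had a median standard error of 0.16, and 1 rose and 1 fell. The 13 tested genes under 10 CPM had a median standard error of 0.33, and 0 rose and 2 fell. With such standard errors, a difference of the size seen for type I collagen would not be detectable for most genes under 10 CPM.

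The 6 genes left out by the filter, Col19a1, Col9a2, Col6a5, Col22a1, Col17a1 and Col4a6, had 0 to 21 counts in a library. Col9a2, a FACIT chain of cartilage singled out here after its values were seen, had 9, 20 and 12 counts in control and 2, 1 and 2 counts in CKO libraries. The control libraries were all higher. DESeq2 gave it a log2 fold change of -2.72 (adjusted p = 0.0447), and edgeR without a filter gave -2.65 (adjusted p = 0.0412). The type IX partner Col9a3 had 17, 18 and 9 counts in control and 15, 26 and 27 counts in CKO libraries, which overlapped (adjusted p = 0.253 by edgeR).

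Levels can be compared between genes per length. Per kilobase of the longest annotated transcript, Col1a2 and Col1a1 were highest in both groups, at 768 ± 146 and 681 ± 86.1 CPM per kb in control and 1192 ± 28.9 and 1041 ± 50.5 in CKO (SD, n = 3). In control the ranges of both genes overlapped between libraries, although Col1a2 was above Col1a1 in each library on this scale. Col3a1 followed at 392 ± 56.7 and 435 ± 32.1 CPM per kb, and Col6a1 at 195 ± 8.70 and 161 ± 11.3. Col5a2 and Col4a1 had the same level in control, 114 CPM per kb each, and 148 and 108 in CKO. Divided by all exonic bases of the gene instead, Col1a1 led with 615 CPM per kb in control and Col1a2 was second with 330, so the order of the type I chains depends on the length chosen. Collagen genes also differ from most genes in build. The median longest transcript of the tested members was 6083.5 bases against 3365.5 for all genes tested, and the median GC content was 55.4% against 49.7%. With per-library offsets for GC content and length, 7 collagen genes rose and 3 fell, with a median log2 fold change of 0.033. In that fit 9.98% of all genes were called, 696 higher and 674 lower, and the median of all genes was 0.033 as well.

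The proteins that build, hold and remove collagen were read from hand-written lists, and their counts can be set beside the 2.88% of all genes that rose and the 4.51% that fell. Of 21 tested genes for modification and folding of the chains, 1 rose, P4ha3, a subunit of prolyl 4-hydroxylase, by a log2 fold change of 0.38, and 0 fell. The median of that list was 0.071. Among 12 genes for propeptide cleavage and cross-linking, the lysyl oxidase relatives Loxl3 and Loxl1 went opposite ways, at 0.81 and -0.58. Among 12 proteins that bind fibrils, the small proteoglycans Lum and Dcn rose by 1.02 and 0.72 and the cartilage and tendon protein Comp fell by 1.10.

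Of 16 basement membrane partners, 3 rose and 2 fell. Tinagl1, the laminin chain gene Lama2 and the heparan sulfate proteoglycan agrin (Agrn) rose by 0.81, 0.61 and 0.46, and the laminin chain gene Lama1 and nidogen 2 (Nid2) fell by 1.86 and 0.86. Of 10 genes for collagen receptors and uptake, 3 rose and 3 fell. The integrin subunit genes Itga1 and Itga11 and the receptor kinase Ddr2 fell by 1.58, 0.53 and 0.46, while Itga10, the endocytic receptor Mrc2 and the inhibitory receptor Lair1 rose by 0.92, 0.54 and 0.46. Of 9 collagen-degrading proteases, Mmp2 rose by 0.50 and Fap fell by 0.81. All of these log2 fold changes had adjusted p under 0.05 by edgeR, and the list medians were 0.073 for cleavage and cross-linking, -0.17 for fibril partners, 0.011 for basement membrane, -0.41 for receptors and -0.059 for proteases, where the median of all genes tested was 0.0017. Without control replicate 3, where 21.5% of all genes were called, each of these genes still passed and more were called. In that fit 2 rose and 1 fell for modification and folding, and 4 and 1 for cleavage and cross-linking. The counts were 4 and 2 for fibril partners, 4 and 4 for basement membrane, 4 and 4 for receptors, and 2 and 2 for proteases. The list medians there were 0.024 for modification and folding, 0.051 for cleavage and cross-linking, 0.10 for fibril partners, 0.025 for basement membrane, -0.40 for receptors and 0.040 for proteases, so those of fibril partners and proteases turned from negative to positive.

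Some markers of other cell types also differed with genotype, and their part in the collagen levels was not tested. The numbers of called markers stand beside the 2.88% of all genes that rose and the 4.51% that fell. Of 8 mesenchymal genes, all tested, Thy1 and Ly6a rose, Eng and Pdgfra fell, and the summed level was 761 to 840 CPM in control and 923 to 950 CPM in CKO libraries. The 8 osteoblast genes summed to 10094 to 17231 and 12061 to 20293 CPM, nearly all from Spp1, and 3 of 7 tested fell. The sums of the 6 macrophage genes overlapped, at 25815 to 27963 and 24736 to 28897 CPM, nearly all from Lyz2, and 0 passed. Itgam and Adgre1 lay higher and Csf1r lower in every CKO library than in every control library. The 4 adipocyte genes with a row summed to 116 to 129 CPM in control and 86.0 to 108 CPM in CKO, and 3 of 4 fell. Adipoq had 42.9 to 53.8 CPM in control and 0.289 to 1.49 CPM in CKO libraries (log2 fold change -5.80). Plin1 and Cfd, at 2.17 to 4.12 and 1.18 to 1.95 CPM in control, had 0 counts in every CKO library. The most abundant of the 4, Fabp4, did not pass and lay the other way, at 66.3 to 78.8 CPM in control and 85.3 to 107 CPM in CKO libraries (log2 fold change 0.46). The 6 endothelial genes summed to 24.3 to 37.3 and 21.1 to 23.3 CPM, the 5 smooth muscle genes to 485 to 647 and 533 to 558 CPM, and 0 of either list passed. The 4 Schwann cell genes summed to 8.91 to 10.4 and 3.78 to 4.50 CPM, and S100b was the 1 of 2 tested that fell. The marker genes called here also passed without control replicate 3, where 21.5% of all genes were called. In that fit 5 mesenchymal genes rose and 3 fell. Among macrophage genes, Itgam and Ptprc rose and Csf1r fell (log2 fold changes 0.52, 0.31 and -0.30). Spp1 and Fabp4 also rose there, and the endothelial gene Cdh5 and the smooth muscle gene Cnn1 fell.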

How the data were processed

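Poly(A) RNA from MSCs of 3 control and 3 Pcif1 CKO libraries was sequenced by the authors as paired reads. Per the labels, FastQC, HISAT2, DESeq2 and mm10 were used, and the authors deposited raw counts of reads per gene, without normalization. How reads were assigned to genes (tool, annotation, strand) is not given in the sources used here, so overlapping and antisense genes can share reads. Of the 20163 rows, 92 repeated an Ensembl ID with the same counts and were used once.

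The table was fitted with edgeR 4.0.16 under R 4.3.3 by glmQLFit and glmQLFTest, after filterByExpr and TMM scaling and with genotype as the sole term. Benjamini-Hochberg adjusted p-values were taken over all 13733 genes tested. CPM values are TMM-scaled. A standard error is the log2 fold change over the root of its F statistic. Lengths, positions and GC content came from GENCODE M21 (GRCm38) for 20059 IDs. Collagen genes named with all values are those at an adjusted p under 0.05, Col1a1, Col1a2 and Col3a1, the most abundant tested chain of each class and the tested chains of the same trimer. Others are given by counts and ranges or chosen after their values were seen. The members and lists were chosen with earlier results of these data known.

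Alternatives were DESeq2 1.42.0, limma-voom (limma 3.58.1), RLE or total-count scaling, no filter, a minimum mean count of 10, a block for the replicate number, offsets for GC content and length (splines with 5 degrees of freedom), a fit without X and Y genes, and leaving out each library. On simulated counts for this comparison, with 13685 genes and changes of 2 on the log2 scale, edgeR recovered 190 of 196 changed genes, or 96.9%, with 10 false calls. DESeq2 recovered 191 of 200 among 17665 genes, with 34 false calls. With limma-voom, 191 of 196 were recovered among 13685 genes, with 11 false calls.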

Additional observations from a re-analysis of the deposited data

How the results depend on the processing

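Of the collagen genes, 4 rose and 3 fell with TMM scaling in edgeR, where 7.4% of all genes were called. The counts were 6 and 4 with DESeq2 (9.01% of all genes called), 5 and 3 with limma-voom (7.05%) or RLE scaling (7.41%), 5 and 4 without a filter (5.74%), and 4 and 3 with total-count scaling (7.7%), the minimum mean count of 10 (7.3%), or without X and Y genes (7.22%), where Col4a5 could not be fitted and Col5a2 passed. Offsets for GC content and length gave 7 higher genes (9.98% of all genes called), a median log2 fold change of 0.033 in place of -0.059, and small positive log2 fold changes for Col4a1 (0.023), Col4a2 (0.043), Col15a1 (0.013) and Col18a1 (0.0013), none of which passed the test there. With those offsets the median of all genes tested was 0.033, where it was 0.0017 without them, so it moved by less than the collagen median.

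Leaving out each library in turn, between 0 and 8 collagen genes rose, between 1 and 9 fell, 0 were up-regulated and 1 to 2 were down-regulated, and the median log2 fold change lay between -0.086 and 0.027. In these fits 3.38% to 21.5% of all genes were called, the most without control replicate 3. The percent of counts on collagen genes was higher in CKO by 0.366 to 0.547 percentage points. Among the 34 genes, signs turned for 8 that did not pass either way, with log2 fold changes over the 6 fits of -0.012 to 0.093 for Col11a1, -0.38 to 0.026 for Col7a1, -0.17 to 0.0027 for Col18a1, -0.064 to 0.63 for Col23a1, -0.11 to 0.49 for Col11a2, -0.14 to 0.072 for Col15a1, -0.27 to 0.051 for Col24a1 and -0.34 to 0.23 for Col25a1. The cause was not tested. Leaving out a library leaves 2 in its group, which also lowers the power of the test.

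The replicate numbers are shared by both groups, but same-numbered libraries did not deviate together (correlations of -0.045 to 0.055), so the numbers give no pairing. With the replicate number as a block, 4 collagen genes rose, 3 fell, 0 were up-regulated and 2 down-regulated, with a median of -0.057, and over all genes 267 rose and 503 fell, against 396 and 620 without the block (5.61% and 7.4% of all genes). Depth limits the genes under 10 CPM, and the intervals cover the spread between 3 libraries of each genotype. PCR copies were not told apart from separate molecules.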
